A study of Mus musculus with 17 samples.

Results

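The comparison described here asks which genes responded differently in the B cells and the CD4 T cells of this study when cells taken from the lacrimal gland were set against cells of the same kind taken from the spleen. It uses 14 of the series' 17 arrays, chosen by sample title: 4 arrays of gland B cells, 3 of spleen B cells, 4 of gland CD4 T cells and 3 of spleen CD4 T cells. The other 3 arrays hold gland epithelial cells and serve only as a reference for epithelial RNA. All mice were male and of the NOD strain, which develops autoimmune inflammation of the lacrimal gland and is used as a model of Sjögren's disease. Gland donors were 16 weeks old. For the spleen donors the sample labels give 16 weeks and the series' design text gives 4 weeks, with the spleen cells described as steady-state controls, so tissue and age cannot be told apart if the design text holds. Live B cells were sorted by flow cytometry as CD45+, NKp46-, CD11b-, CD11c-, B220+ and CD3- cells, and CD4 T cells as CD45+, NKp46-, CD11b-, CD11c-, B220-, CD3+ and CD4+ cells. Neither gate separates naive, memory, regulatory or antibody-secreting cells. Enzymatic digestion is stated for the gland suspension. Nothing in the labels says that arrays of a group come from separate animals, so the p-values measure the spread between these arrays, which may be technical.

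For each of 17097 genes the gland effect was taken as the gland mean minus the spleen mean of the deposited log2 values, once in B cells and once in CD4 T cells. The difference is the B cell effect minus the CD4 T cell effect. A value above 0 means a larger rise or a smaller fall in B cells. A gene was called at a limma p-value below 0.05 after Benjamini-Hochberg adjustment over all genes and a change of at least 2-fold (1 on the log2 scale). The word only, used of a subset, means that the gland effect was called in that subset, was not called in the other, and the difference itself was called. Bulk arrays of sorted cells cannot tell a larger share of cells carrying a transcript from more transcript per cell. The gene lists were chosen with earlier results of these data known, so the shares given for them are descriptions and not tests.

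B cells and CD4 T cells enter an inflamed gland from the blood and take up different tasks there. CD4 T cells that meet antigen release cytokines such as interferon gamma and interleukin 21, display inhibitory and costimulatory receptors, and may stay as tissue-resident cells or act as Foxp3+ regulatory cells. B cells present antigen on MHC class II molecules, respond to interferons, and can divide in germinal centres or become antibody-secreting plasma cells. The spleen also holds cells that rarely recirculate, among them newly formed B cells arriving from the bone marrow and marginal zone B cells, which guard the blood.

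The lineage genes followed the sort labels. The mean of 13 B cell identity genes lay between 10.10 and 10.24 in the 7 B cell arrays and between 4.74 and 5.20 in the 7 CD4 T cell arrays. The mean of 12 T cell identity genes lay between 9.87 and 10.04 in CD4 T cells and between 4.43 and 4.90 in B cells. Arrays within a group correlated at 0.986 to 0.996, and none were identical. Some arrays stood apart for particular gene groups. Gland B cell replicates 1 and 2 were the highest of their group for the type I interferon list (8.44 and 8.37, against 6.71 and 7.62 in replicates 3 and 4), for a list of 8 plasmacytoid dendritic cell genes (8.69 and 8.63, against 7.99 and 8.34) and for Cd8a. Spleen B cell replicate 3 carried 6.55 on a neutrophil list, against 3.54 and 3.59 in the other spleen B cell arrays. Epithelial genes were higher in both gland subsets than in both spleen subsets, as described with the epithelial values near the end.

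The gland effect differed between the subsets for 938 of 17097 genes (5.49%). The difference was above 0 for 231 genes (1.35%) and below 0 for 707 (4.14%), so that 75.4% of the called differences pointed toward a larger rise, or a smaller fall, in CD4 T cells. The separate effects behind these counts were 451 genes higher (2.64%) and 276 lower (1.61%) in gland B cells, together 4.25% of genes. They were 930 genes higher (5.44%) and 280 lower (1.64%) in gland CD4 T cells, together 7.08%. Genes that rose in CD4 T cells only were the largest class, with 413 members (2.42%). They were followed by 121 genes that fell in B cells only (0.708%), 105 that fell in CD4 T cells only (0.614%) and 57 that rose in B cells only (0.333%). Opposite directions were found for 22 genes (0.129%). Another 50 genes moved the same way by unequal amounts (0.292%), and 170 had a called difference with no single effect past the threshold (0.994%). Centring each array on its median moved the share of called differences below 0 to 63.4% and the median CD4 T cell effect over all genes from -0.03 to -0.19.

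**Figure D1:**
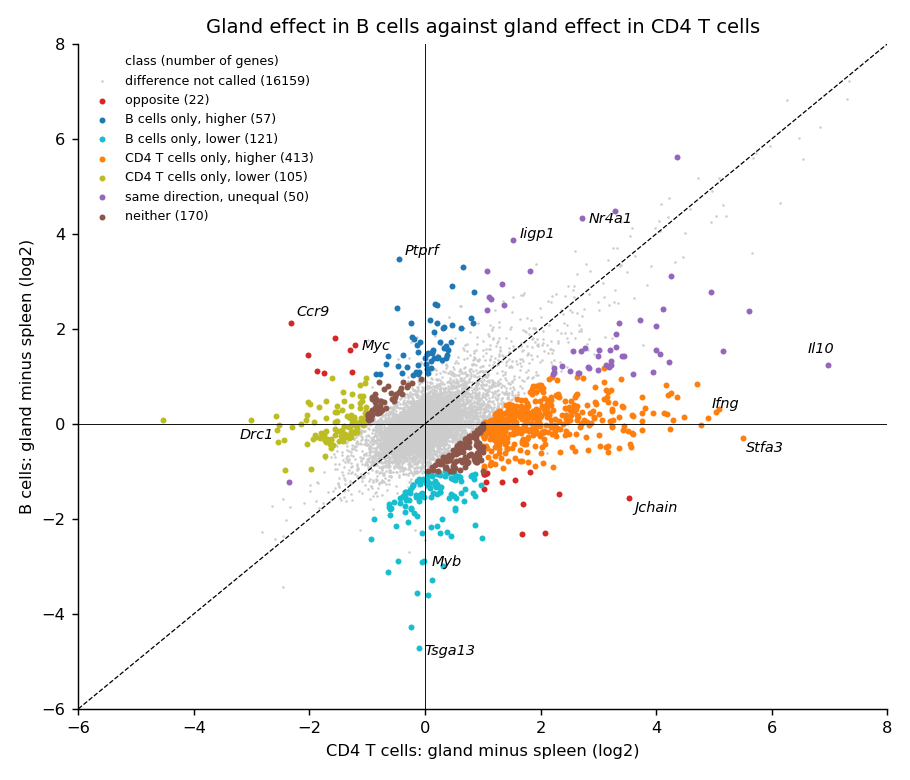
Each point is 1 of 17097 genes. The horizontal axis is the gland effect in CD4 T cells and the vertical axis the gland effect in B cells, both as log2 differences of group means. Colours mark the class of the called differences, and the dashed line marks equal effects. The orange points, 413 genes higher in CD4 T cells only, extend to the right along the horizontal axis, while the 22 opposite genes lie in the upper left and lower right.

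Being called in a single subset is weak evidence that the other subset was unmoved, so the interval of the other effect was examined. The 95% interval of the other subset's effect lay within 1 log2 unit of 0 for 352 of the 413 genes higher in CD4 T cells only, 95 of 105 lower in CD4 T cells only, 102 of 121 lower in B cells only and 43 of 57 higher in B cells only. Missing the threshold in the other subset was also not enough by itself to show a difference. Of 634 genes that rose in CD4 T cells and were not called in B cells, 413 had a called difference. The corresponding numbers were 57 of 161 B cell rises, 121 of 202 B cell falls and 105 of 212 CD4 T cell falls. Values near the thresholds were close together. Tcea3 (-1.00215) and Pctp (-1.00245) lay just inside the fold minimum and Serpinb7 (-0.99820) and Ccdc50 (-0.99862) just outside, and the adjusted p-values (limma) of Adh1 (0.0489) and Gucy2g (0.0503) lay on either side of 0.05.

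Among the genes with opposite effects, 8 had a difference above 0 and 14 below 0. Jchain, which joins the units of secreted IgM and IgA, had the largest difference of the ranked genes. It read 9.86, 9.57, 9.68 and 9.43 in gland B cells against 11.22, 11.15 and 11.19 in spleen B cells. In CD4 T cells it read 9.25, 8.32, 9.54 and 9.26 in the gland and 4.26, 5.60 and 6.85 in the spleen. All 4 gland B cell arrays lay below all 3 spleen arrays, and all 4 gland CD4 T cell arrays lay above theirs. The B cell effect was -1.55 (SE 0.44), the CD4 T cell effect 3.52 (SE 0.44) and the difference -5.07 (SE 0.62, adjusted p = 7.25e-05). In the spleen the subsets were 5.62 log2 units apart and in the gland 0.54. Other B lineage genes were read beside it. In CD4 T cells 1 of 13 B cell identity genes rose (Bank1) and 1 fell. Of 11 plasma cell genes, Jchain among them, 5 rose there (5.44% of all genes did). Cd79a, a chain of the B cell receptor, had a CD4 T cell effect of 0.05 (SE 0.11, adjusted p = 0.786), and Ms4a1, which encodes CD20, had 0.77 (SE 0.34, adjusted p = 0.123). Whether antibody-secreting cells or their RNA contributed to the Jchain value in CD4 T cells was not tested.

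Il18, the interleukin 18 gene, showed the same pattern with less spread. Its values in B cells were 5.87, 5.93, 5.39 and 5.28 in the gland and 6.81, 7.33 and 7.11 in the spleen. Those in CD4 T cells were 5.20, 5.34, 5.52 and 5.19 in the gland and 2.82, 3.11 and 3.06 in the spleen. No gland array overlapped its spleen group in either subset, and the difference was -3.78 (SE 0.24, adjusted p = 1.90e-07). Ebi3, a subunit of the cytokines interleukin 27 and 35, fell by 1.06 in B cells and rose by 1.03 in CD4 T cells. Mgst1 (difference -4.36), a glutathione transferase, Tmem26 (-3.99), Ehd2 (-3.38), a membrane-bending ATPase, and Gfod1 (-2.82) also fell in B cells and rose in CD4 T cells. Of these, Mgst1 was not above the median of all deposited values, 4.71, in both subsets, and Tmem26 overlapped between gland and spleen CD4 T cells. Other probe sets of Ehd2 (2 of its 3) and Gfod1 (1 of its 3) had differences of the other sign. The other probe set of Mgst1 had a difference of -0.13.

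Genes that moved the other way, up in gland B cells and down in gland CD4 T cells, included a chemokine receptor and a growth regulator. Ccr9, a receptor for Ccl25 that directs lymphocytes to gut and thymus, read 8.88, 8.54, 5.87 and 7.34 in gland B cells against 5.70, 5.18 and 5.70 in spleen B cells. It read 5.30, 4.67, 5.29 and 5.09 in gland CD4 T cells against 7.71, 7.14 and 7.37 in spleen CD4 T cells. The 4 CD4 T cell gland arrays were all low, whereas the gland B cell arrays spread over 3 log2 units, with replicate 3 barely above the spleen. The difference was 4.45 (SE 0.74, adjusted p = 9.55e-04). Cd7, a surface receptor of T and natural killer cells, had the same order of gland B cell arrays (7.35, 7.23, 4.51 and 5.86, against 4.11 to 4.96 in the spleen) and a difference of 3.36 (SE 0.72, adjusted p = 0.00613).

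Gland B cell replicates 1 to 4 averaged 8.44, 8.37, 6.71 and 7.62 on the type I interferon list, which is the same order. The inhibitory receptor list had it too (6.78, 6.665, 6.35 and 6.57). So did the plasmacytoid dendritic cell list, which has Ccr9 among its 8 measured genes. These cells carry B220, and the CD11c- gate would remove those that carry CD11c. The list's mean was 7.99 to 8.69 in gland B cells, 8.06 to 8.13 in spleen B cells, 5.91 to 6.08 in gland CD4 T cells and 5.79 to 6.09 in spleen CD4 T cells. Ccr9 was its 1 member called in B cells. Without gland B cell replicates 1 and 2 together the differences of Ccr9 (3.40) and Cd7 (2.31) were still called by limma but the B cell rises were not, so both genes then counted as lower in CD4 T cells only. The part of such cells in the result was not tested.

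Myc, a transcription factor that drives growth and is induced when lymphocytes are activated, showed no such spread among B cells. It read 7.83, 8.38, 8.70 and 8.49 in gland B cells against 6.67, 6.66 and 6.77 in spleen B cells. Its CD4 T cell values were 6.43, 5.23, 6.36 and 6.61 in the gland and 6.90, 7.88 and 7.33 in the spleen. Gland and spleen did not overlap in either subset, and the difference was 2.87 (SE 0.43, adjusted p = 4.58e-04). Amigo2, a cell adhesion protein, read 8.23 to 9.39 in gland B cells against 6.90 to 7.35 in the spleen, and 7.27 to 7.75 in gland CD4 T cells against 9.31 to 9.70 (difference 3.48, SE 0.34). The cation channel gene Trpm1 (2.97) and Parm1 (2.86), which encodes a mucin-like membrane protein, completed the 12 opposite genes of largest difference among those ranked. The other probe set of Trpm1 had a difference of 0.71.

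**Figure D2:**
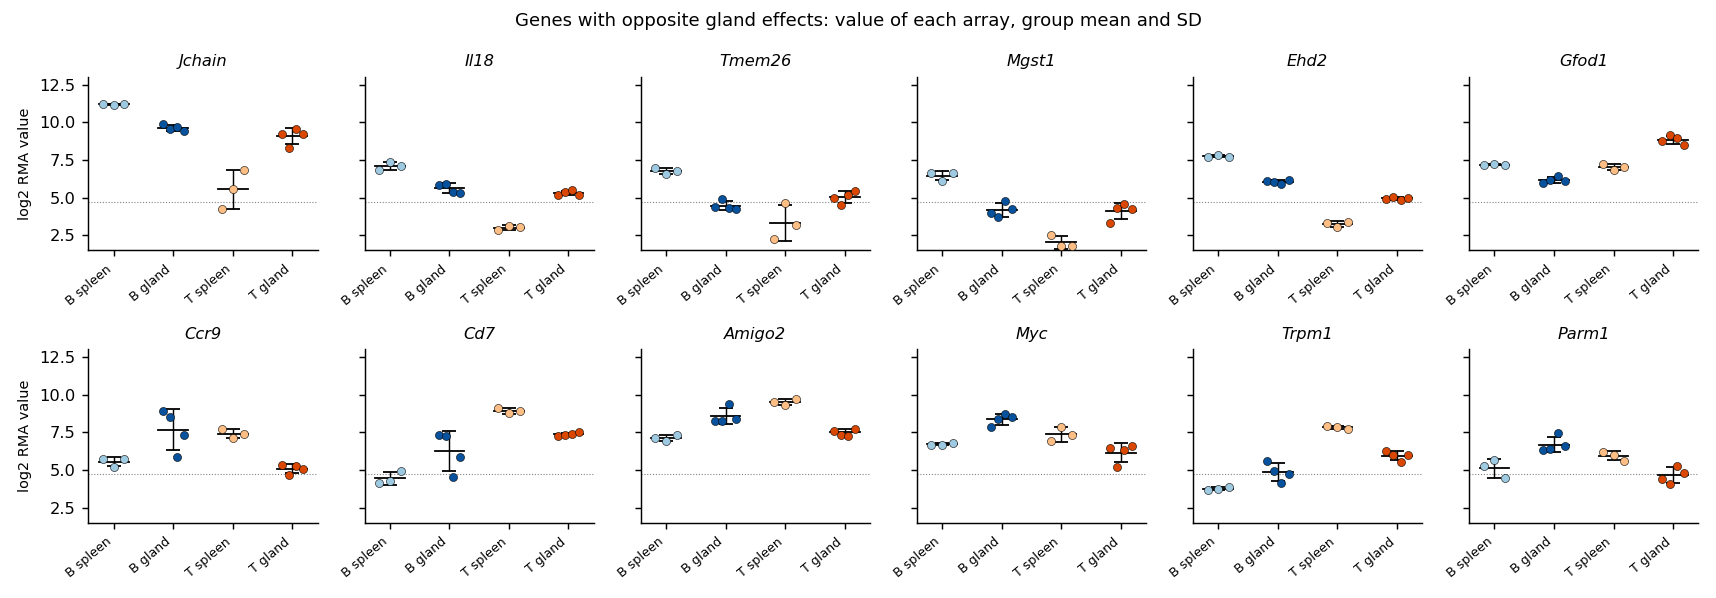
Log2 RMA values of the 12 opposite genes with the largest differences among those ranked. Each point is 1 array (3 spleen and 4 gland arrays per subset), bars give the group mean and SD, and the dotted line is the median of all deposited values, 4.71. In the upper row the mean of gland B cells lies below that of spleen B cells and the mean of gland CD4 T cells above that of spleen CD4 T cells, and in the lower row both shifts are turned. Arrays of gland and spleen overlap for Tmem26 in CD4 T cells and for Cd7 in B cells.

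The 57 genes that rose in B cells only included interferon-inducible genes, cytokine signalling genes and regulators of lymphocyte traffic. Tgtp1, an interferon-inducible GTPase that acts against intracellular pathogens, read 10.58, 10.68, 9.96 and 10.53 in gland B cells against 7.78, 8.06 and 8.00 in spleen B cells. In the CD4 T cell arrays it was already high in the spleen, at 10.61, 10.61 and 10.68, and read 10.87, 10.84, 10.79 and 10.89 in the gland. Gland B cells thus came within 0.41 log2 units of gland CD4 T cells from a gap of 2.69 in the spleen. The B cell effect was 2.49 (SE 0.14), the CD4 T cell effect 0.21 (SE 0.14) and the difference 2.28 (SE 0.19, adjusted p = 2.56e-06). Nlrc5, which switches on MHC class I genes, followed the same course: 9.18 to 9.62 in spleen B cells, 10.59 to 10.93 in gland B cells, and 10.62 to 10.99 over all CD4 T cell arrays (difference 1.18, adjusted p = 1.35e-04).

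Socs3, an inhibitor of cytokine receptor signalling that was singled out after its values were seen, rose from 3.70 to 3.76 in spleen B cells to 6.38 to 6.77 in gland B cells. Its difference was 1.93 (SE 0.17), because the CD4 T cell effect was 0.85 (SE 0.12) and below the fold minimum. Klf2, a transcription factor that keeps lymphocytes recirculating, read 9.28, 9.57, 9.33 and 10.002 in gland B cells against 7.99, 8.13 and 8.18 in the spleen. In CD4 T cells it read 7.94, 8.07, 7.82 and 8.72 in the gland against 8.26, 8.60 and 8.69, and these groups overlapped. The difference was 1.82 (SE 0.29, adjusted p = 7.69e-04). The death receptor gene Fas (1.24), the transcription factor gene Egr2 (1.29) and Basp1 (1.89) were further B cell rises, of which Egr2 had a CD4 T cell effect of 0.83 below the fold minimum and Basp1 one of -0.85. Basp1 overlapped between gland and spleen B cells.

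The largest ranked differences of this class belonged to genes that varied among the gland B cell arrays. Ptprf, a receptor tyrosine phosphatase, read 7.30, 6.87, 5.50 and 6.06 in gland B cells against 2.46 to 3.65 in spleen B cells (difference 3.91, SE 0.51, adjusted p = 1.36e-04). Of its 3 probe sets 1 was called, and the lowest difference was 0.33. Ppm1h (2.92), a protein phosphatase, Csf2rb2 (2.37), a receptor subunit for interleukin 3, and Iqgap2 (2.35), a cytoskeletal scaffold, were each highest in gland B cell replicates 1 and 2. P2ry14 (2.65), a receptor for nucleotide sugars, was lowest in replicate 4. Without replicates 1 and 2 the differences of P2ry14 (2.16, adjusted p = 0.0615) and Iqgap2 (1.54, adjusted p = 0.0647) no longer passed the limma threshold, whereas Ptprf, Ppm1h and Csf2rb2 remained called. Iqgap2 also lost its call without spleen B cell replicate 1 (1.94, adjusted p = 0.0665) and without spleen CD4 T cell replicates 1 or 3. Csf2rb2 was not above the median of all values in CD4 T cells, and its call was also lost when any of 4 spleen arrays was left out (adjusted p between 0.0512 and 0.0691). Atp11a, a phospholipid flippase, did not vary in this way: 7.44, 7.31, 7.31 and 7.11 in B cells of the gland, 3.97, 4.44 and 4.78 in those of the spleen, 8.59 to 8.68 in gland CD4 T cells and 8.13 to 8.22 in spleen CD4 T cells (difference 2.44, SE 0.20). The other probe set of Atp11a had a difference of 0.14 and was not called. Cd8a, the CD8 alpha chain, named after its values were seen, also fell in this class (1.43, adjusted p = 0.0438). It read 7.58 and 6.89 in gland B cell replicates 1 and 2 and 5.79 and 6.02 in replicates 3 and 4, against 5.02 to 5.17 in the spleen. The call was lost without gland B cell replicates 1 and 2 (0.77), without gland B cell replicate 2 alone (adjusted p = 0.0823) and under most other single omissions. Cd8b1, the CD8 beta chain, had a B cell effect of 0.34.

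The 121 genes that fell in B cells only included cell division genes, genes of newly formed B cells and of the marginal zone, and atypical chemokine receptors. In the list of 29 cell division genes, 12 fell in B cells and none rose (1.61% and 2.64% of all genes). A called difference was found for 17, all of them below 0 (58.6%, against 5.49% of all genes). A list of 5 red cell precursor genes was also lower in gland than in spleen arrays, at 4.17 to 4.66 against 5.16 to 5.92 in B cells and 3.92 to 4.35 against 5.31 to 5.73 in CD4 T cells, and spleen B cell replicate 2 was highest of its group on both lists. Its part in the B cell values was not tested. In CD4 T cells Mcm6, a subunit of the replicative helicase, rose by 1.28 (SE 0.09) and was the 1 list member called. The median effect over the list was -0.82 in B cells against 0.37 in CD4 T cells. Mki67, the marker of dividing cells Ki-67, read 5.92, 6.06, 6.22 and 6.85 in gland B cells against 7.84, 8.19 and 7.43 in spleen B cells. Its CD4 T cell values were 8.42, 8.14, 8.34 and 8.49 in the gland against 7.77, 8.15 and 7.88 in the spleen. Every gland B cell array lay below every spleen B cell array, while the CD4 T cell groups overlapped slightly. The difference was -1.97 (SE 0.29, adjusted p = 4.31e-04). Nusap1 (-2.28), which bundles spindle microtubules, Aurkb (-2.10), a mitotic kinase, Rrm2 (-1.82), a subunit of the enzyme that makes deoxynucleotides, and Top2a (-1.44), the DNA topoisomerase of replicating chromosomes, followed. Top2a was named after its values were seen, and the mean of its probe sets gave -0.51. Pcna, the replication clamp, rose in neither subset past the fold minimum (0.69 and 0.58).

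The promoters of Mki67 and Top2a are shown because cell cycle genes of this kind share short promoter elements. The capitals mark CCAAT boxes (CCAAT, or ATTGG on the other strand) and cell cycle homology regions (TTTGAA, or TTCAAA on the other strand) in the 200 bases before the RefSeq start site of the GRCm38.p6 build, at chr7:135716380-135716579 (minus strand) and chr11:99024190-99024389 (minus strand).
Mki67: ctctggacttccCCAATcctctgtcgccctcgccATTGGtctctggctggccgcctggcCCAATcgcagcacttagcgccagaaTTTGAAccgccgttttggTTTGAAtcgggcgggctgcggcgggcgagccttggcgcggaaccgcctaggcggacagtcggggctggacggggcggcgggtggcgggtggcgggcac
Top2a: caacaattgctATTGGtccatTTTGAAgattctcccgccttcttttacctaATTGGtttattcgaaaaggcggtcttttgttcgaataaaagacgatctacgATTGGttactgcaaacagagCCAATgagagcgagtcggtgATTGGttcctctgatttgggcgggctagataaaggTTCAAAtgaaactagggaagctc
Mki67 holds 5 matches and Top2a 7. The 250 bases before the start were read on both strands. CCAAT was present in 22 of the 25 cell division genes with a promoter in the table. It was present in 39.6% of the 13605 tested genes with one. TTTGAA was present in 10 of 25, against 14% of those tested genes. A match describes the letters and does not show that a factor binds there.

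Of 13 genes of immature B cells, 8 fell in B cells (1.61% of all genes did) and 7 differences were below 0 (4.14% of all genes). Without the 3 genes 4-fold higher in the epithelial sort than in at least 1 spleen group, 6 fell and 4 differences were below 0. Later counts of this kind use the same rule. Myb, a transcription factor of haematopoietic progenitors, read 2.23, 2.67, 2.74 and 2.53 in gland B cells against 5.81, 5.14 and 5.33 in spleen B cells, and 4.49 to 5.06 over all CD4 T cell arrays (difference -2.87, SE 0.24). Vpreb3, which assists assembly of the B cell receptor, read 8.01, 8.05, 8.02 and 8.37 in gland B cells against 9.67, 9.71 and 9.81 in spleen B cells. The CD4 T cell arrays lay near the array median for this gene, at 4.29 to 4.94, and the difference was -1.52 (SE 0.19). Cd93 (-1.42), a surface marker of transitional B cells, Rag1 (-1.41), the recombinase of antigen receptor genes, and the tetraspanin gene Cd9 (-1.59) fell as well. Sox4, a transcription factor of lymphocyte progenitors, fell in both subsets, from 6.18 to 6.78 in spleen B cells to 2.70 to 3.31 in the gland and from 6.18 to 7.13 in spleen CD4 T cells to 3.86 to 4.49. Its difference was not called (-0.98, adjusted p = 0.075).

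Marginal zone genes fell as well. S1pr3, a sphingosine phosphate receptor that holds B cells in the marginal zone, read 6.22 to 7.01 in gland B cells against 8.68 to 8.90 in spleen B cells (difference -2.35, SE 0.34). Its other probe set had a difference of -0.05. Cd1d1, which presents lipid antigens, read 7.63 to 7.86 against 9.13 to 9.21 (difference -1.11, SE 0.13). Of the 13 genes on this list 6 fell in B cells (1.61% of all genes) and 4 had a called difference (30.8%, against 5.49% of all genes), or 4 and 2 of the 10 not 4-fold higher in the epithelial sort. Cd9 and Asb2 (-1.32) were the other called members. Dtx1, a target of Notch signalling, fell by 2.02 in B cells against 2.40 in CD4 T cells, and its difference was not called (0.38, adjusted p = 0.48).

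Receptors and surface proteins were among the largest B cell falls. Ffar2, whose protein senses short-chain fatty acids, read 4.26, 4.38, 4.10 and 4.79 in gland B cells against 8.74, 8.55 and 8.71 in spleen B cells. All 7 CD4 T cell arrays read 3.93 to 4.70, so that gland B cells lay at the level of CD4 T cells (difference -4.05, SE 0.25, adjusted p = 1.71e-07). Ackr2 (-3.40) and Ackr3 (-3.30), atypical chemokine receptors that capture ligands without classical signalling, fell from 8.69 to 8.81 and from 7.36 to 7.69 in spleen B cells to 4.88 to 5.85 and 4.03 to 5.23. Tsga13 (-4.62), Wfdc21 (-3.67), the ubiquitin ligase gene Nedd4 (-2.65), Ube2e2 (-2.43), which encodes a ubiquitin-conjugating enzyme, and Nebl (-2.48), an actin-binding protein gene, were the other leading falls. Stom, a membrane protein gene with a difference of -3.40, counted here because its CD4 T cell effect of 0.99 lay just under the fold minimum. Its call was lost when all its probe sets were averaged. Tnfrsf17 (-1.38), the survival receptor BCMA of plasma cells, and Bid (-1.35), a promoter of apoptosis, were smaller falls, and the mean of the Bid probe sets gave -0.88.

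Genes that rose in CD4 T cells only included effector cytokines, inhibitory and costimulatory receptors and regulators of T cell signalling. Ifng, the interferon gamma gene, read 10.59, 10.31, 10.54 and 10.49 in gland CD4 T cells and 5.09, 5.78 and 5.87 in spleen CD4 T cells. B cells read 4.70, 4.47, 4.04 and 5.25 in the gland and 3.96, 4.72 and 4.79 in the spleen, near the array median. The CD4 T cell effect was 4.91 (SE 0.27), the B cell effect 0.13 (SE 0.27) and the difference -4.78 (SE 0.38, adjusted p = 1.52e-06). Il21, which helps B cells in germinal centres, read 7.68 to 8.24 in gland CD4 T cells and 3.26 to 4.08 in the spleen, with all B cell arrays at 1.76 to 2.12 (difference -3.98, SE 0.24). Stfa3 (-5.80), a cysteine protease inhibitor gene, had the largest difference among the ranked genes of the class. Ccr8 (-4.77), a chemokine receptor of activated and regulatory T cells, and Ccl1 (-3.67), which encodes its ligand, rose together in gland CD4 T cells, from 3.62 to 4.10 to 8.63 to 9.09 and from 3.31 to 3.38 to 6.27 to 7.50.

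The lists of T cell functions were shifted the same way. Members that were low in every B cell array, such as Il21, could differ only through CD4 T cells. Beside the counts of rises in these and later lists, 5.44% of all genes rose in CD4 T cells and 2.64% in B cells. Of 15 regulatory T cell genes, 10 rose in CD4 T cells and 3 in B cells, and 12 had a called difference, all below 0 (80%, against 5.49% of all genes). Foxp3, the transcription factor that defines regulatory T cells, named after its values were seen, read 9.71, 9.86, 9.68 and 9.45 in gland CD4 T cells against 8.45, 8.22 and 8.39 in the spleen. The B cell arrays read 5.09 to 5.53 with overlapping groups, and the difference was -1.54 (SE 0.15). Tnfrsf4 (-2.58), the costimulatory receptor OX40, Itgae (-2.35), the integrin chain CD103 that binds epithelial cadherin, Entpd1 (-1.95) and Nt5e (-1.18), enzymes that turn extracellular ATP into adenosine, rose in CD4 T cells only. Nt5e was lost when probe sets were averaged and without spleen B cell replicate 2 (difference -0.90). Il2ra, the high-affinity interleukin 2 receptor chain, had a called difference of -1.42 although neither effect reached 2-fold (-0.76 in B cells against 0.66 in CD4 T cells).

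Among 21 Th1 and cytotoxic genes, 14 rose in CD4 T cells, 4 in B cells, and 12 differences were called, all below 0 (57.1%, against 5.49% of all genes). Ccl5 (-2.58), a chemokine for effector cells, and Gzmk (-2.46), a granzyme, read 9.88 to 10.37 and 7.61 to 8.10 in gland CD4 T cells against 6.81 to 7.56 and 4.93 to 5.74 in the spleen. Cxcr3, the receptor through which interferon-induced chemokines attract cells, rose in both subsets (1.99 in B cells against 1.89 in CD4 T cells, difference 0.10, 95% interval of the difference -0.52 to 0.71). Of 15 follicular helper T cell genes, 8 rose in CD4 T cells, 1 in B cells, and 7 differences were below 0 and 1 above (53.3%, against 5.49% of all genes). Those below 0 included Maf (-2.80), a transcription factor that induces interleukin 21, and Icos (-1.82), a costimulatory receptor. The inhibitory receptor list was mixed. Lag3 (-3.59), Pdcd1 (-2.63), the PD-1 gene, and Havcr2 (-2.23), the TIM-3 gene, rose in CD4 T cells only, and Ctla4 rose more in CD4 T cells (3.30) than in B cells (1.62). Klrg1, a receptor of terminally differentiated cells, fell in CD4 T cells only, from 7.86 to 8.49 in the spleen to 5.92 to 6.38 in the gland (difference 1.63).

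Of 24 genes of TNF family costimulation, 9 rose in CD4 T cells, 2 in B cells, and 11 differences were below 0 and 1 above (50% called, against 5.49% of all genes). Tnf, the tumour necrosis factor gene, read 7.55, 7.20, 7.40 and 7.49 in gland CD4 T cells against 5.99, 6.01 and 6.09 in the spleen, while the B cell values of 5.42 to 5.88 in the gland and 5.97 to 6.37 in the spleen were lower in the gland but short of 2-fold. Its difference was -1.82 (SE 0.17, adjusted p = 8.76e-06). Tnfsf11 (-2.51), the RANK ligand gene, read 8.75 to 9.02 in gland CD4 T cells, 6.01 to 7.04 in spleen CD4 T cells and 1.91 to 2.48 in all B cell arrays. The NF-kB list, which holds Tnf, had 11 of 17 genes higher in CD4 T cells and 3 in B cells (5.44% and 2.64% of all genes). It had 6 called differences, all below 0 (35.3%, against 5.49% of all genes). Nfkbia, the inhibitor that NF-kB induces against itself, read 10.05, 10.44, 10.28 and 10.13 in gland CD4 T cells and 8.24, 8.37 and 8.32 in the spleen. It read 8.50, 8.88, 9.03 and 8.74 in gland B cells against 8.79, 8.73 and 8.88 in spleen B cells, which overlap. The difference was -1.92 (SE 0.17, adjusted p = 3.67e-06). Icam1 (-1.68), the adhesion ligand of LFA-1, Nfkb2 (-1.31), an NF-kB subunit, and Nfatc1 (-1.27), a calcium-regulated transcription factor, followed.

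Of 15 feedback regulators of receptor signalling (Dusp, Sprouty and Rgs genes), 5 rose in B cells, 8 in CD4 T cells, and 5 differences were called, 4 below 0 and 1 above (33.3%, against 5.49% of all genes). Without the 7 genes 4-fold higher in the epithelial sort, 3 rose in CD4 T cells and 2 in B cells, with 2 differences below 0 and 1 above. The difference above 0 was of Rgs1 (1.18), which rose in both subsets. Spry1, an inhibitor of receptor kinase signalling, read 8.71, 8.89, 8.62 and 8.90 in gland CD4 T cells and 4.998, 5.04 and 5.04 in the spleen, against 4.14 to 4.54 in all B cell arrays (difference -3.69, SE 0.15). Rgs16, which shortens G protein signals, read 8.97 to 9.05 against 4.95 to 5.16, and 4.48 to 4.90 in B cells (difference -3.72, SE 0.12, adjusted p = 4.43e-10). The phosphatase genes Dusp14 (-3.76) and Dusp16 (-3.63, not on the list) rose in CD4 T cells only, Dusp16 from 4.45 to 5.21 up to 7.70 to 8.73, with the B cell arrays at 8.08 to 8.94.

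Of 13 tissue residency genes, 10 rose in CD4 T cells and 5 in B cells, where 5.44% and 2.64% of all genes did. The difference was below 0 for 7 and above 0 for 2 (69.2% called, against 5.49% of all genes). Without the genes 4-fold higher in the epithelial sort, 8 remained, of which 6 and 2 rose, with 4 differences below 0 and 1 above. Prdm1, the transcription factor Blimp-1, read 8.87, 8.23, 8.68 and 8.82 in gland CD4 T cells against 6.41, 6.19 and 6.37 in the spleen, and 4.91 to 5.78 in gland B cells against 5.34 to 6.19 (difference -2.92, SE 0.33). Ahr (-2.30), a receptor for environmental ligands, and Xcl1 (-3.07), a chemokine for cross-presenting dendritic cells, showed the same pattern. The residency marker Cd69 rose in both subsets (1.98 in B cells against 1.16 in CD4 T cells), and its difference of 0.83 was below the fold minimum. S1pr2 (-1.94) and Il15ra (-1.08), receptors for sphingosine phosphate and interleukin 15, were smaller calls. Il15ra lost its call when any of 4 arrays was left out, and S1pr2 (-1.61, adjusted p = 0.0692) without gland B cell replicates 1 and 2. Pdcd1lg2 (-2.01), a PD-1 ligand gene, rose in CD4 T cells from 4.32 to 4.87 up to 7.07 to 7.37, with B cells at 5.79 to 6.05 in the spleen and 6.13 to 7.30 in the gland.

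Other leading rises in CD4 T cells only were of genes with many functions. Ccn4 (-4.80), a matrix-associated signalling protein gene, Sostdc1 (-4.34), an antagonist of bone morphogenetic proteins, and Efnb2 (-4.34), an ephrin, were near or below the median of all values in spleen CD4 T cells and B cells. Efnb2 read 6.31 in gland B cell replicate 3 and 3.52 to 3.82 in the others. Hmgn3 (-3.87), a nucleosome-binding protein, rose in CD4 T cells from 2.42 to 3.04 up to 5.99 to 6.26, still below the B cell arrays (6.54 to 7.22). Kif13a (-3.63), a kinesin, rose from 4.82 to 5.17 up to 8.02 to 8.17, above all B cell arrays (5.81 to 6.71). Eppk1 (-3.98), a cytoskeletal linker, reached 5.90 to 6.61, within reach of the B cell arrays (6.02 to 7.45). Of 15 glycolysis genes 3 had a called difference (20%, against 5.49% of all genes). They were Slc16a3 (-1.53), a lactate exporter, Hk2 (-1.50), hexokinase 2, and Tpi1 (-1.47), triosephosphate isomerase. Without gland B cell replicates 1 and 2 the Hk2 difference was -1.32 (limma adjusted p = 0.051).

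A further group consisted of genes usually associated with B cells and other antigen-presenting cells. H2-Ab1, the beta chain of the MHC class II molecule I-A, read 7.42, 8.38, 8.13 and 7.88 in gland CD4 T cells and 4.90, 5.16 and 5.005 in spleen CD4 T cells. B cells read 11.68, 11.71, 11.85 and 11.79 in the gland and 11.57, 11.57 and 11.70 in the spleen, far above CD4 T cells in either tissue. The CD4 T cell effect was 2.93 (SE 0.17), the B cell effect 0.14 (SE 0.17) and the difference -2.79 (SE 0.23, adjusted p = 2.56e-06). Cd74 (-2.76), the invariant chain that escorts class II molecules, H2-Aa (-2.69) and H2-Eb1 (-2.67) had nearly the same values. Of 12 genes of class II presentation, 6 rose and 1 fell in CD4 T cells (5.44% and 1.64% of all genes). The difference was below 0 for 5 and above 0 for 1 (50% called, against 5.49% of all genes), and H2-DMa, which loads peptides, rose in CD4 T cells by 1.04 with no called difference. The fall was of H2-Ob, a chain of the class II modulator H2-O, from 6.68 to 7.34 in the spleen to 5.50 to 6.40 in the gland. Irf8, a transcription factor of B cells and myeloid cells named after its values were seen, rose in CD4 T cells from 5.21 to 5.45 up to 7.32 to 7.42 (difference -1.65, SE 0.10).

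B cell markers were read beside these values. Over the 13 B cell identity genes the median CD4 T cell effect was 0.18, with 1 gene called higher and 1 lower in the gland. Bank1, an adaptor of the B cell receptor, rose in CD4 T cells only, from 2.10 to 2.64 up to 3.06 to 4.20 (difference -1.14), and the list's other 12 members had no called difference. In gland CD4 T cell replicates 1 to 4 the class II list averaged 6.90, 7.16, 7.16 and 7.25, and the B cell identity list 5.12, 4.78, 5.20 and 5.07. A list of 13 myeloid genes averaged 4.35 to 4.48 in gland CD4 T cells and 3.63 to 4.20 in spleen CD4 T cells, and 4.17 to 4.75 over the B cell arrays. The part of B cells, myeloid cells or their RNA in the class II values of CD4 T cells was not tested.

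The promoters of H2-Aa and H2-Eb1 are shown for the Y box, an element of class II promoters, which the capitals mark as CTGATTGG. They cover 200 bases before the RefSeq start in GRCm38.p6, at chr17:34287824-34288023 (minus strand) and chr17:34305667-34305866 (plus strand).
H2-Aa: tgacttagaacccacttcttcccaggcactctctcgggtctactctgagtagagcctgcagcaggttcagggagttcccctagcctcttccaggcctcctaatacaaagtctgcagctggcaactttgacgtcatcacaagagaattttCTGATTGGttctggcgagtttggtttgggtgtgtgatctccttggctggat
H2-Eb1: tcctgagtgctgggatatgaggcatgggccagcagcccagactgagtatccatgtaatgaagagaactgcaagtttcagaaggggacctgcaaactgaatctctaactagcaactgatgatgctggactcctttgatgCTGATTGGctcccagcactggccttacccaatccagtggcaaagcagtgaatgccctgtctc
The element was found, on either strand within 250 bases before the start, in 3 of the 9 class II presentation genes with a promoter in the table. The share was 5.53% of the 13605 tested genes with one.

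Plasma cell genes split in the same sense. Of 11 measured, 5 rose in CD4 T cells, 2 fell in B cells, and 6 differences were called, all below 0 (54.5%, against 5.49% of all genes). Without the 3 genes 4-fold higher in the epithelial sort, 3 rose in CD4 T cells and 4 differences were called. Besides Jchain and Prdm1 these were Ell2 (-2.16), an elongation factor used in antibody secretion, Xbp1 (-1.37), a transcription factor of secretory cells, Irf4 (-1.23), a transcription factor of activated lymphocytes, and Tnfrsf17. Irf4 read 10.81 to 11.11 in gland CD4 T cells against 9.02 to 9.10 in the spleen, and 11.56 to 11.65 in gland B cells against 10.93 to 11.01. Ighm, the heavy chain of IgM, had effects of -0.22 in B cells against 0.30 in CD4 T cells, neither of them called. Cd24a (-2.04), a surface glycoprotein of immature lymphocytes and epithelium, read 9.28 to 9.48 in gland CD4 T cells against 6.82 to 7.97 in the spleen, and 11.20 to 11.35 in all B cell arrays.

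Genes that fell in CD4 T cells only included genes of naive and resting T cells. Igfbp4, an insulin-like growth factor binding protein expressed by naive T cells, read 7.25, 7.57, 7.19 and 7.64 in gland CD4 T cells and 9.26, 9.36 and 9.38 in spleen CD4 T cells. B cells read 5.92, 6.68, 6.12 and 6.13 in the gland and 6.20, 6.08 and 6.26 in the spleen, which overlap. The difference was 1.95 (SE 0.22, adjusted p = 3.63e-05). Bcl2, which protects resting lymphocytes from apoptosis, read 8.32, 8.72, 8.51 and 8.39 against 9.80, 9.66 and 9.89 in CD4 T cells, and 8.82 to 9.11 against 9.15 to 9.31 in B cells (difference 1.06, SE 0.15). Without gland B cell replicates 1 and 2 the Bcl2 difference was 0.96, under the fold minimum. Lef1 (1.13), a transcription factor of naive T cells, fell from 6.22 to 6.89 to 4.55 to 5.52. Bach2 (1.20), a repressor of effector differentiation, had a CD4 T cell effect of -0.99 and a B cell effect of 0.22, so its difference was called without either effect. In the list of 14 naive and recirculating lymphocyte genes 2 fell and 1 rose in CD4 T cells (1.64% and 5.44% of all genes), and 1 rose in B cells. Differences were above 0 for 5 and below 0 for 1 (42.9% called, against 5.49% of all genes). Those above 0 included the B cell rise of Klf2 and 2 genes with neither effect called. Itgb7 (1.10), the integrin chain for homing to gut, likewise had neither effect past 2-fold, and fell to 0.99 without gland B cell replicate 4.

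The larger falls in this class were of varied genes. Xkrx, a membrane protein gene, read 6.32, 6.26, 6.25 and 6.72 in gland CD4 T cells against 8.93, 8.78 and 8.79 in the spleen, and 9.07 to 9.82 over all B cell arrays (difference 2.11, SE 0.19). Sfrp2, a secreted modulator of Wnt signalling, fell from 7.78 to 8.08 to 5.17 to 5.47, and Drc1, a component of motile cilia, from 7.24 to 7.66 to 4.29 to 4.49, with differences of 2.76 (SE 0.20) and 3.09 (SE 0.14). Both lay below the median of all values in B cells. Ryr2 (2.40), an intracellular calcium channel, Tbc1d16 (2.49) and Tex26 (2.23) were of the same kind. The other probe sets of Ryr2 (0.26) and Tbc1d16 (0.31) were not called. Treml2 (2.10), a receptor of the TREM family, fell by 1.42 in CD4 T cells and had a B cell effect of 0.68. Itgb3 (1.89), the integrin beta 3 chain, fell from 8.75 to 9.11 to 7.11 to 7.89. Arhgap29 (2.59) and Mob3b (1.99) came close to the opposite class, with B cell effects of 0.98 and 0.96. Their other probe sets, with differences of 0.82 and 0.15, were not called.

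**Figure D3:**
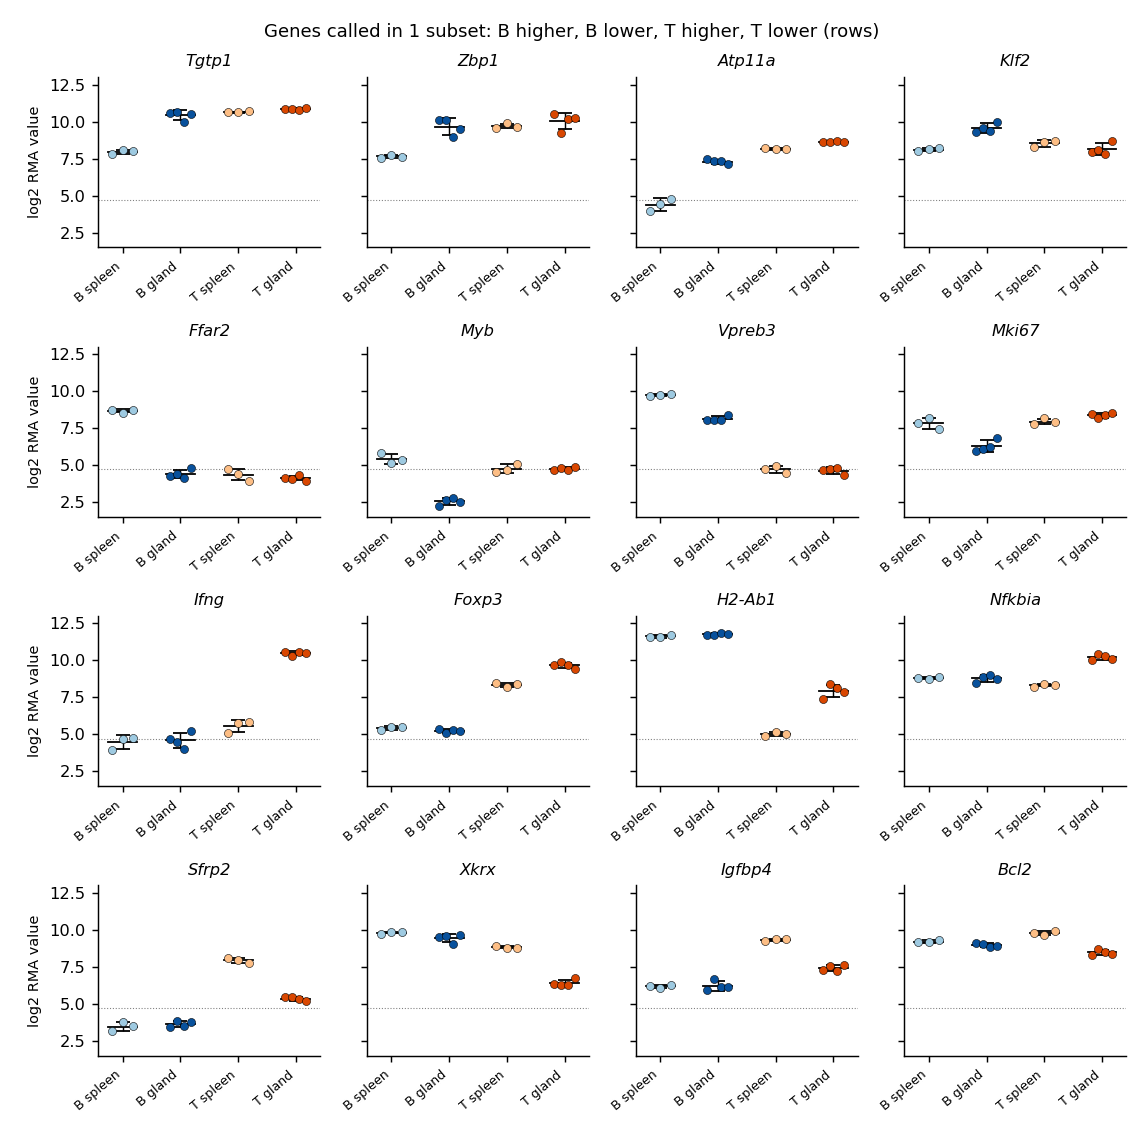
Log2 RMA values of 16 genes called in a single subset, with each array as a point, the group mean and SD, and a dotted line at the median of all values, 4.71. Rows from the top show genes higher in B cells only, lower in B cells only, higher in CD4 T cells only and lower in CD4 T cells only. In each row 1 subset shifts between spleen and gland while the other stays near its spleen level, which may be high (Tgtp1, H2-Ab1) or near the dotted line (Ffar2, Ifng).

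The level of the other subset was read against the median of all values. Of the 413 genes higher in CD4 T cells only, B cells were below the median of all values in both tissues for 180 (43.6%) and at or above the gland CD4 T cell level in both tissues for 82 (19.9%). For the 57 genes higher in B cells only the corresponding numbers in CD4 T cells were 23 (40.4%) and 20 (35.1%). For genes lower in CD4 T cells only, B cells were below that median for 53 of 105 (50.5%). Whether gland cells of the subsets were closer together than spleen cells can be read from the gap between their means. For genes lower in CD4 T cells only, the gap was smaller in the gland for 84 of 105 (80%), with a median gap of 1.88 in the spleen and 0.99 in the gland. For genes higher in CD4 T cells only it was smaller in the gland for 135 of 413 (32.7%), with medians of 0.94 and 2.01. The share over all genes was 47.7%. These shares follow in part from the class rule and carry no test.

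Shared changes set a background for these differences. The subsets shared 282 rises, which are 62.5% of the B cell rises and 30.3% of the CD4 T cell rises, and 60 falls, 21.7% and 21.4% of each. Over 17097 genes the effects correlated at 0.55, as a description of genes that are not independent. Of the 282 shared rises 233 had no called difference, but the 95% interval of the difference lay within 0.5 log2 units of 0 for 3 of the 282 rises and 10 of the 60 falls. Wdr38 fell by 2.41 in B cells against 2.59 in CD4 T cells (difference 0.18, 95% interval -0.12 to 0.48), and Nrp1, the neuropilin receptor, rose by 1.62 in both (95% interval -0.38 to 0.39), although 2 of the 3 probe sets of Nrp1 had differences of the other sign, the lowest of them -2.24. Tjp1, a tight junction protein gene, Dynlt1b, a dynein light chain gene, and Mllt11 were further shared changes with an interval inside 0.5 log2 units.

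Where both subsets moved the same way by unequal amounts, 38 differences were below 0, all of them larger rises in CD4 T cells, and 12 were above 0, of which 11 were larger rises in B cells and 1 a larger fall in CD4 T cells. Il10, the gene of an anti-inflammatory cytokine, had the largest inequality of the ranked genes. It read 9.47, 9.28, 9.26 and 9.36 in gland CD4 T cells against 1.96, 2.54 and 2.60 in the spleen, and 2.93, 2.95, 3.89 and 3.30 in gland B cells against 2.14, 1.94 and 1.998. Gland and spleen did not overlap in either subset, and the difference was -5.74 (SE 0.29, adjusted p = 2.62e-08). Bhlhe40 (-3.62), which promotes cytokine production in T cells, rose by 5.15 in CD4 T cells and by 1.53 in B cells. Cxcl10 (-2.92), an interferon-induced chemokine, and Ccl3 (-3.23), a chemokine of activated cells, followed. The chemokine list as a whole had 12 of 30 genes higher in CD4 T cells, 8 in B cells and 7 differences below 0 (23.3% called, against 5.49% of all genes). Without the 13 genes 4-fold higher in the epithelial sort, 5 of 17 were higher in CD4 T cells and 3 in B cells, with 3 differences below 0.

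Larger rises in B cells were found among early response and interferon-induced genes. Of 24 immediate early genes, which cells switch on within minutes of stimulation, 20 rose in B cells against 14 in CD4 T cells (2.64% and 5.44% of all genes). On this list 5 differences were above 0 and 1 below (25% called, against 5.49% of all genes). Of these genes 12 were 4-fold higher in the epithelial sort, and among the other 12, 8 rose in B cells, 3 in CD4 T cells, and 2 differences were above 0. Nr4a1, an orphan nuclear receptor induced by antigen receptor signals, read 9.92, 9.87, 10.37 and 9.81 in gland B cells against 5.54, 5.80 and 5.64 in the spleen, and 8.73 to 8.89 in gland CD4 T cells against 5.88 to 6.23 (difference 1.61, SE 0.18). Jun, a subunit of the AP-1 factor, went the other way (-2.17, SE 0.31), with spleen values of 7.51 to 7.89 in B cells against 4.43 to 5.29 in CD4 T cells and gland values of 10.18 to 10.86 and 9.37 to 10.01. Rgs2 (-1.54) also rose more in CD4 T cells, to the same gland level as in B cells, 10.70. Rgcc (1.60), a cell cycle regulator, and Gbp10 (1.56), a guanylate-binding protein, rose more in B cells. Enzymatic digestion is stated for the gland cells, and its part in the early response genes was not tested.

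Interferon response genes rose in both subsets. Of 23 type I interferon response genes, 18 rose in B cells against 15 in CD4 T cells (2.64% and 5.44% of all genes). An unadjusted limma p below 0.05 was found for 9 of the differences, and 1 gene had a called difference (4.35% of the list, against 5.49% of all genes). That gene was Zbp1, a sensor of nucleic acids, which read 10.08, 10.12, 8.96 and 9.48 in gland B cells against 7.55 to 7.74 in the spleen, and 9.23 to 10.48 in gland CD4 T cells against 9.59 to 9.88. Its difference of 1.71 (adjusted p = 0.0129) was 1.27 (adjusted p = 0.0537) by limma without gland B cell replicates 1 and 2. Gland B cell arrays ranged from 6.71 to 8.44 in the mean of the list, and differences that missed the threshold do not show equal effects. Ifit2 had a difference of 1.82 and Mx1, an antiviral GTPase gene, one of -2.11, and neither passed the threshold (adjusted p = 0.105 and 0.0694). Of 16 interferon gamma response genes, 11 rose in B cells against 6 in CD4 T cells (2.64% and 5.44% of all genes). Their called differences were 6, with 3 in each direction (37.5%, against 5.49% of all genes). Without the 3 genes 4-fold higher in the epithelial sort, 1 was above 0 and 2 below. Iigp1, an immunity-related GTPase, read 6.47, 6.78, 6.05 and 6.49 in gland B cells against 2.02, 2.74 and 2.97 in the spleen, and 9.16 to 9.48 in gland CD4 T cells against 7.63 to 7.89 (difference 2.36, SE 0.28). Tgtp1 and Socs3 were the other members with a difference above 0. Gbp3, a guanylate-binding protein, rose in CD4 T cells only, from 6.52 to 6.94 up to 8.45 to 9.36, with 7.48 to 7.99 over all B cell arrays (difference -1.99, SE 0.28), and Irf8 and Cxcl10 were the other members below 0.

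The promoters of Tgtp1 and Gbp3 are shown because these members of the list differed in opposite senses. Capitals mark the core of the interferon-stimulated response element (GAAA, any 2 bases, GAAA, on either strand) in the same 200-base window of GRCm38.p6, at chr11:48992247-48992446 (minus strand) and chr3:142559844-142560043 (plus strand).
Tgtp1: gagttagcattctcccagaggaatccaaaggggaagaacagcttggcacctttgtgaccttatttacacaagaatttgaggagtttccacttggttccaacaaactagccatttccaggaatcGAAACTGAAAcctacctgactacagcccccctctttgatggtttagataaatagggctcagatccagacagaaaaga
Gbp3: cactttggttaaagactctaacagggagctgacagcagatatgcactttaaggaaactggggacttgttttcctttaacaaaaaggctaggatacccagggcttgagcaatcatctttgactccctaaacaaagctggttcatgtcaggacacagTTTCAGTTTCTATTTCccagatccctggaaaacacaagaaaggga
Tgtp1 holds 1 match and Gbp3 holds 2 overlapping matches on the other strand. The core was present in 8 of 13 interferon gamma response genes and in 5 of 16 type I response genes with a promoter in the table. The share was 3.09% of the 13605 tested genes with one.

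**Figure D4:**
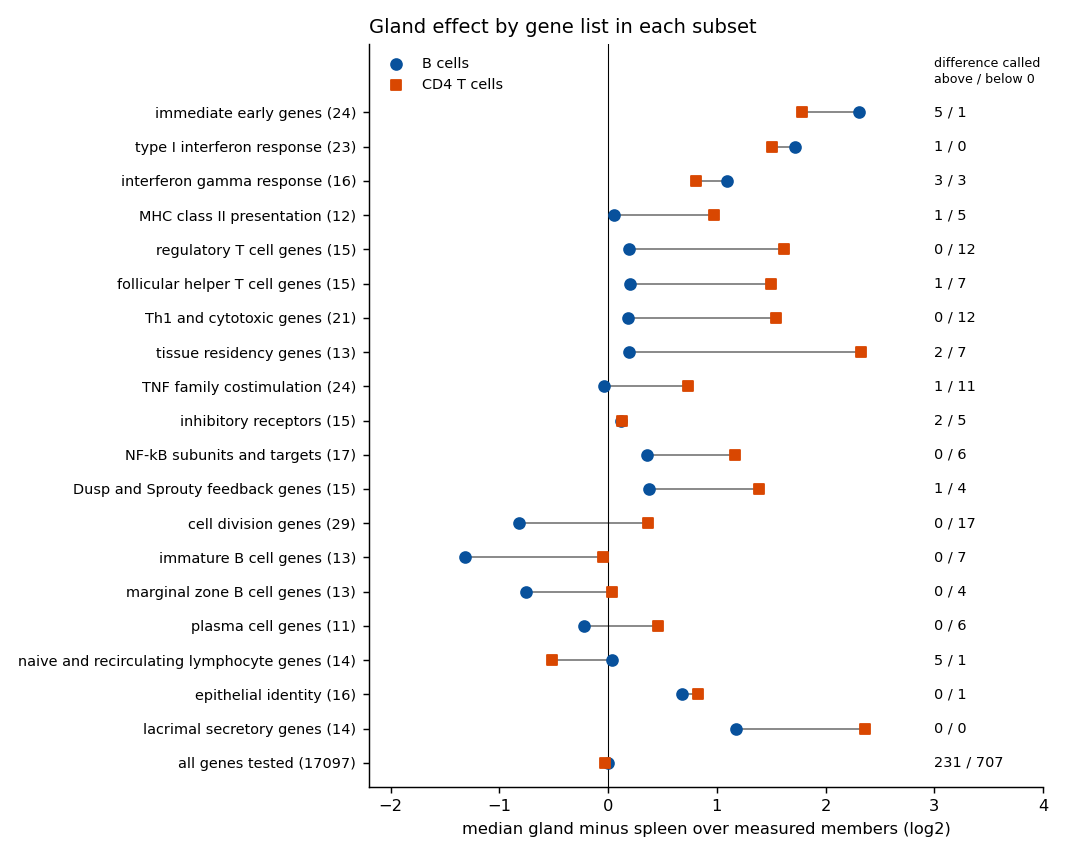
Median gland effect (log2) over the measured members of 19 gene lists, in B cells (circles) and CD4 T cells (squares), with the number of measured members in brackets and, at the right, how many members had a called difference above and below 0. Most lists of T cell functions lie near 0 in B cells and to the right in CD4 T cells, except inhibitory receptors, which lie near 0 in both, cell division and immature B cell lists lie to the left in B cells, and the early response and interferon lists lie to the right in both.

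Epithelial RNA was measured in both gland subsets. The mean of 16 epithelial identity genes was 5.28 to 5.49 in gland B cells and 5.46 to 5.68 in gland CD4 T cells, against 3.81 to 4.02 in the spleen arrays and 8.92 to 9.41 in the epithelial sort. Of the epithelial arrays, replicate 1 read 9.62 for the leukocyte gene Ptprc and the others 2.42 and 2.36. The lacrimal secretory list averaged 6.44 to 6.84 in gland B cells and 6.52 to 7.58 in gland CD4 T cells, against 3.23 to 4.82 in the spleen. Obp1a, an odorant-binding protein of the gland, read 11.04 to 11.47 in gland B cells and 11.01 to 11.44 in gland CD4 T cells. The list's median effect was 1.18 in B cells against 2.36 in CD4 T cells, and its median difference was -0.28. Of the 14 secretory genes measured 7 rose in each subset, and limma called no difference (0 at an adjusted p below 0.05, 1 at an unadjusted p below 0.05). Of the epithelial identity genes 7 rose in each subset, and the 1 called difference was of Prom1 (-3.00), which fell in B cells. Genes at least 4-fold higher in the epithelial sort than in at least 1 spleen group made up 335 of the 938 called differences (35.7%), against 11.1% of all genes. The set can hold genes high in 1 lymphocyte subset, and leukocyte genes, because replicate 1 enters the epithelial mean. On the Th1 and cytotoxic list replicate 1 of the epithelial sort averaged 7.19 and the others 3.79 and 3.74. The set made up 178 of the 413 genes higher in CD4 T cells only (43.1%) and 27 of the 57 higher in B cells only (47.4%). It also held 26 of the 121 lower in B cells only (21.5%), 23 of the 105 lower in CD4 T cells only (21.9%), 8 of the 22 opposite genes (36.4%) and 30 of the 50 moving the same way (60%). With the genes of this set left out, 604 differences were called, 447 of them below 0. The part of epithelial RNA in single results was not tested.

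**Figure D5:**
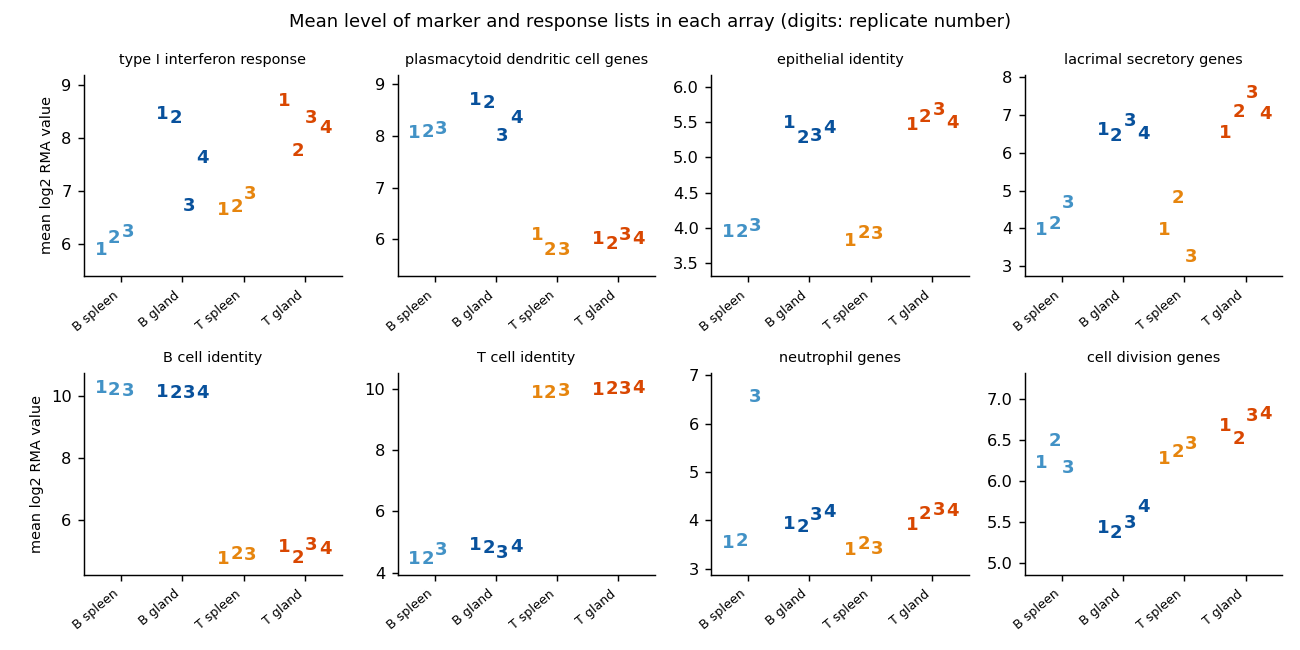
Mean log2 RMA value of 8 gene lists in each array, with digits giving the replicate number and groups along the horizontal axis. Epithelial identity genes are higher in both gland subsets (5.28 to 5.68) than in the spleen (3.81 to 4.02), cell division genes are lower in B cells of the gland than of the spleen (5.36 to 5.69 against 6.16 to 6.49), and gland B cell replicates 1 and 2 lie above replicates 3 and 4 for the type I interferon and plasmacytoid dendritic cell lists.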

How the data were processed

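RNA from 17 FACS sorts was amplified and hybridised to 1-colour expression arrays, and 14 arrays entered the fit. Per the labels' protocols, 3 RNA samples had an integrity number below 8, and they could not be matched to arrays. The deposited log2 values were made by the authors with Partek and RMA, per the submitters' processing notes, with versions and genome build not given in the sources used here. The values lie between 0.492 and 12.95, with array medians of 4.70 to 4.75. The number of arrays, 3 or 4 per group, limits the precision: the median SE was 0.11 for an effect and 0.16 for the difference.

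Of 45141 probe sets, 28898 had exactly 1 gene symbol in GEO's platform annotation, 551 had several and 15588 none. For each of 17097 genes the probe set of highest mean over 17 arrays was kept, with no filter on dim genes. Detection calls were not used, so a fold against a level below 4.71 is a ratio of deposited values. Groups came from sample titles. The limma package (3.58.1, under R 4.3.3) fitted 1 mean per group by lmFit and eBayes, with 10 residual degrees of freedom and Benjamini-Hochberg adjustment over all genes; the scripts were tested on simulated data. The named genes were up to 12 opposite genes, per class the 6 of largest difference and 5 measured in both subsets, up to 4 per list, and shared examples. Antigen receptor segments, unnamed gene models and genes with no group mean above 4.71 were not ranked. The members and the lists (30 of functions and 13 of markers) were chosen with earlier results of these data known. The labels do not say that equal replicate numbers pair arrays, and the main fit assumed no pairing. Within a tissue, deviations of same-numbered B and CD4 T cell arrays correlated between -0.53 and 0.17. These correlations cannot show whether animals were shared, and gland was not compared with spleen in this way. RefSeq promoters are of GRCm38.p6.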

Additional observations from a re-analysis of the deposited data

Results flagged for a closer look

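The gland effect differed between B cells and CD4 T cells by the test of the difference for 231 genes above 0 and 707 below 0. The 12 opposite genes of largest difference among those ranked were picked out for the same reason. Differences below 0, with a fall in B cells and a rise in CD4 T cells, were found for Jchain (-5.07), Mgst1 (-4.36), Tmem26 (-3.99), Il18 (-3.78), Ehd2 (-3.38) and Gfod1 (-2.82). Differences above 0 were found for Ccr9 (4.45), Amigo2 (3.48), Cd7 (3.36), Trpm1 (2.97), Myc (2.87) and Parm1 (2.86).

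A lone array stood apart from the other 3 of its group for 20 of 250 gene and group combinations of the named genes, with a gap divided by the range above the 95% critical value of Dixon's test for 4 values. Chance gives about 5% of groups. Among gland B cells, replicate 3 was the lone array most often: it was highest for Amigo2 (0.858), Efnb2 (0.892), Ahr (0.928) and Prdm1 (0.874) and lowest for Xkrx (0.847), Il15ra (0.853) and Irf8 (0.860). Vpreb3 was highest in replicate 4 (0.905) and Slc16a3 lowest in replicate 1 (0.924). Among gland CD4 T cells, replicate 2 was lowest for Ccl3 (0.914) and Egr2 (0.898) and highest for Dusp14 (0.837) and Rgs2 (0.919). Replicate 1 was lowest for Nebl (0.869), Sostdc1 (0.835) and Basp1 (0.839) and highest for Irf8 (0.879), replicate 3 was highest for Atp11a (0.905), and replicate 4 was highest for Xkrx (0.863) and lowest for Havcr2 (0.853).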

How the results depend on the processing

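Of 125 named genes with a called difference, 103 kept the call under every alternative with 1 value per gene, and none reversed its sign there. The run on each probe set was not among those alternatives. In it other probe sets of Ehd2 (up to 0.22), Gfod1 (0.41), Efnb2 (0.08) and Nusap1 (0.001) had differences of the other sign. Some named genes had further probe sets of the same sign that were not called, among them Atp11a, Ptprf, Ryr2, Tbc1d16, Mob3b, S1pr3 and Mgst1. The counts below are those that moved by more than 1.5 times. With no fold minimum, 824 differences were above 0 and 1372 below, 1591 genes were higher and 1903 lower in gland B cells, 2387 higher and 2085 lower in gland CD4 T cells, and the classes held 214 opposite genes, 226 and 313 genes higher and lower in B cells only, 699 and 407 higher and lower in CD4 T cells only and 253 moving the same way. Testing each probe set gave 375 differences above 0, 437 genes lower in B cells, 556 lower in CD4 T cells and 174 lower in CD4 T cells only, with more features tested. Median centring gave 429 genes lower in CD4 T cells and 162 lower in CD4 T cells only. Without genes 4-fold higher in epithelium, fewer genes were tested, 447 differences were below 0, 172 genes rose in gland B cells, 435 rose in gland CD4 T cells, and the classes held 14 opposite genes, 30 higher in B cells only, 236 higher in CD4 T cells only and 20 moving the same way. Leaving out each array in turn gave 214 to 276 differences above 0 and 665 to 719 below, 15 to 26 opposite genes, 46 to 82 and 109 to 128 genes higher and lower in B cells only, 393 to 425 and 98 to 114 higher and lower in CD4 T cells only, and 38 to 59 moving the same way. The replicate block called 904 differences, 903 of them among the 938, and Iqgap2 (adjusted p = 0.0511) and Cd8a (0.0619) lost the limma call under it. Leaving out gland B cell replicates 1 and 2 together, chosen after seeing the data, gave 941 differences, of which 826 were among the 938. Fitting all 17 arrays, which adds the spread of the epithelial arrays, lost the limma calls of Cd7 (adjusted p = 0.115), Ccl3 (0.195), H2-Aa (0.0936), Ccl5 (0.0527), Xcl1 (0.171), Itgb7 (0.291), Il2ra (0.293) and Irf8 (0.0735). Depth does not apply to arrays, and genes below 4.71 in a group are limited by background signal.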
